A study of Mus musculus with 6 samples.

Results

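Aminopeptidases remove single amino acids from the N-terminus of a peptide, and dipeptidyl peptidases remove a pair at a time. In antigen-presenting cells the first class trims peptides for MHC class I, and the second class also clips chemokines and other signals outside the cell. Levels of 6 such genes, of 23224 gene symbols in the deposited table, are described here in dendritic cells (DC) sorted from mouse tumors. Anpep, Erap1, Lnpep and Lap3 encode aminopeptidases, and Dpp4 and Dpp7 encode dipeptidyl peptidases. The genes were picked by name from values of these same libraries, across all 3 groups and both comparisons, so their own levels and differences are a description and support nothing further. No threshold for the choice is stated.

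The libraries came from MC57-SIY tumors, a mouse fibrosarcoma line that carries the model antigen SIY, taken 7 days after implantation under the skin of C57BL/6 mice. CD103+ DC1 and ISG+ DC were sorted from Rag2-/- hosts, and ISG+ DC also from WT hosts, giving 3 groups of 2 libraries. Without Rag2 a mouse makes no mature T or B cells, while its myeloid and NK cells remain. Tumors were pooled, and each group stands for 2 independent experiments. CD103+ DC1 from WT hosts were not analysed here, and neither the gate used to sort ISG+ DC nor the sex and age of the mice is known from the labels. The comparison of populations (ISG+ DC against CD103+ DC1, Rag2-/- hosts) and that of hosts (WT against Rag2-/-, ISG+ DC) share the Rag2-/- ISG+ DC libraries.

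Libraries held between 6023510 and 15368616 estimated counts in total, and 1 count was worth 0.0629 to 0.171 CPM, the count scaled by library size. The CD103+ DC1 library labelled replicate 3 had the lowest total, and its Spearman correlations over genes with the other libraries were 0.768 to 0.882. The deleted gene itself, Rag2, was at 0 in both WT libraries and at 39, 11, 40 and 2 estimated counts in the Rag2-/- libraries. These counts do not check the host labels, since DC are not known to use Rag2 and the deleted stretch cannot be seen in a count per gene, so host directions rest on the labels as given. The CD103+ DC1 libraries carried the markers of their label: the summed level of 7 CD103+ DC1 markers was 3188 and 2157 CPM in CD103+ DC1 and 192 to 281 CPM in the 4 ISG+ DC libraries. The 5 CD11b+ DC2 markers summed to 144 and 107 CPM in CD103+ DC1 and 2153 to 2747 CPM in ISG+ DC. Most of the ISG+ DC sum was Itgam and Sirpa, averaging 1263 and 673 CPM in Rag2-/- and 1379 and 1033 CPM in WT. Irf4, Clec10a and Cd209a averaged 81.3, 128 and 135 CPM in Rag2-/- ISG+ DC, and 66.7, 83.9 and 69.0 CPM in WT ISG+ DC. Interferon-stimulated genes, 10 in number, summed to 5234 and 4466 CPM in Rag2-/- ISG+ DC, but to 1930 and 2023 CPM in WT ISG+ DC. The CD103+ DC1 libraries summed to 2415 and 2069 CPM, so the WT ISG+ DC libraries did not stand above them in this sum. Single genes went both ways: Oasl2 averaged 127 CPM in CD103+ DC1 and 367 CPM in WT ISG+ DC, and Mx1 481 and 183 CPM.

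Markers of other cells also moved with the groups. The 10 macrophage and monocyte markers summed to 401 and 289.8 CPM in CD103+ DC1, 2013 and 2766 CPM in Rag2-/- ISG+ DC, and 4012 and 3747 CPM in WT ISG+ DC. The 4 pan-DC markers did not move together. Flt3, the receptor of a DC growth factor, averaged 410 CPM in CD103+ DC1, 118 CPM in Rag2-/- ISG+ DC and 24.1 CPM in WT ISG+ DC, and Zbtb46, a DC transcription factor, 263 CPM, 134 CPM and 42.2 CPM in the same order. Itgax, which encodes CD11c, averaged 162 CPM, 510 CPM and 329 CPM, and the class II gene H2-Ab1 5271 CPM, 5549 CPM and 5966 CPM. The 8 fibroblast and fibrosarcoma markers summed to 1050.1 and 419 CPM in CD103+ DC1, 1037 and 634 CPM in Rag2-/- ISG+ DC, and 349.6 and 38.5 CPM in WT ISG+ DC. T cell markers, 6 in number, summed to 6.20 to 30.1 CPM over all libraries. B cell markers reached at most 4.47 CPM and NK cell markers at most 5.09 CPM. Neutrophil markers summed to 8.05 and 4.11 CPM in CD103+ DC1, 22.5 and 12.3 CPM in Rag2-/- ISG+ DC, and 130.3 and 136 CPM in WT ISG+ DC. Nearly all of this was Csf3r, at 126 and 134 CPM in WT, while S100a8 was at 0 in every library, S100a9 at 0 in all but 1 and Mpo at most 1.40 CPM. Endothelial markers summed to 66.7 and 59.1 CPM in CD103+ DC1, 176 and 196 CPM in Rag2-/- ISG+ DC, and 222 and 158 CPM in WT ISG+ DC. Plasmacytoid DC markers summed to 83.6 and 63.7, 169.5 and 140, and 103 and 112 CPM in the same order. Pan-DC markers summed to 5342 to 6870 CPM over all libraries, of which H2-Ab1 alone made up 4427 to 6115 CPM.

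**Figure D1:**
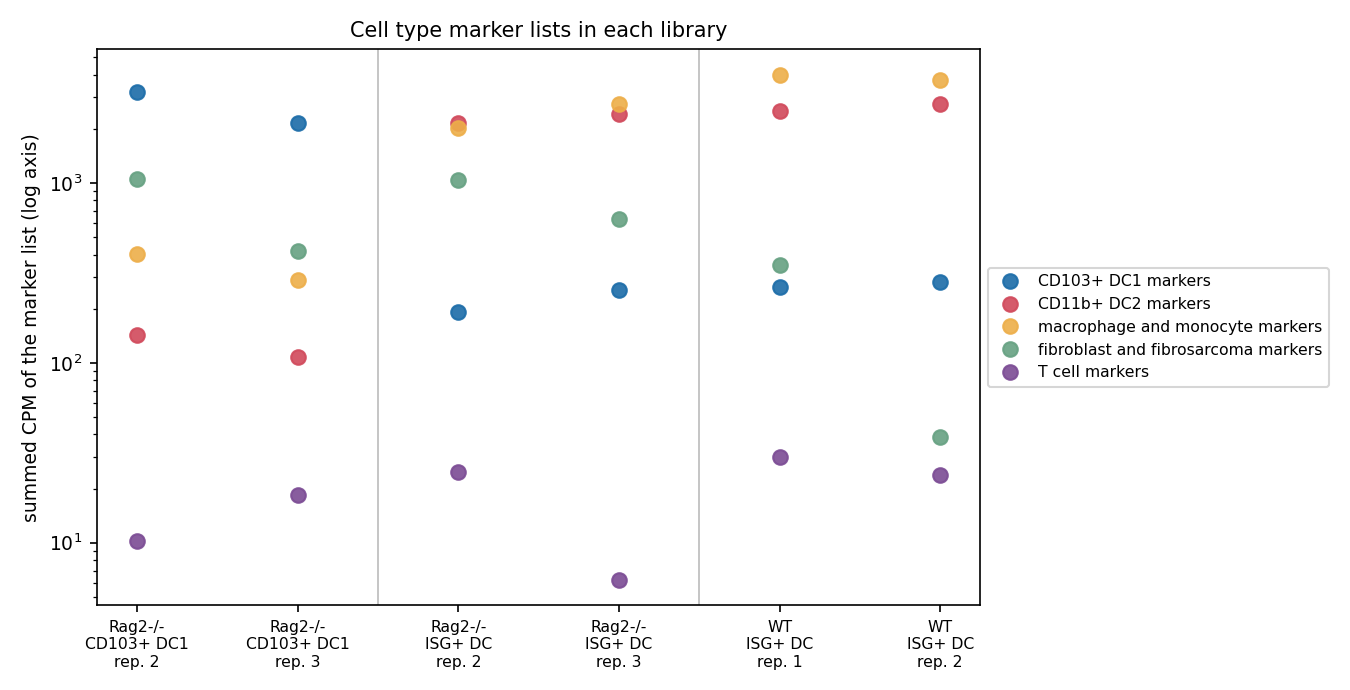
Summed CPM of 5 marker lists (log axis) in each of the 6 libraries, 1 point per list and library. CD103+ DC1 markers are highest in the CD103+ DC1 libraries, and macrophage and monocyte markers rank from 289.8 CPM there to 4012 CPM in a WT ISG+ DC library.

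Upstream sequences of Anpep and Dpp4 are shown because these genes differed most between hosts. Each run holds the 250 bases before the RefSeq transcript start, read 5′ to 3′ on the gene's strand (GRCm38.p6, which is not the build of the counts). All 6 genes had an entry. Scanned were 9 motifs; 5 were kept after their matches had been seen, so the matches are a description that was picked by eye. Capitals mark matches, on either strand, to an interferon gamma-activated site (TTCNNNGAA), an interferon-stimulated response element core (GAAANNGAA), a PU.1 site (GAGGAAG), an AP-1 site (TGANTCA) or a GC box (GGGCGG).

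Anpep, chr7:79848211-79848460, minus strand: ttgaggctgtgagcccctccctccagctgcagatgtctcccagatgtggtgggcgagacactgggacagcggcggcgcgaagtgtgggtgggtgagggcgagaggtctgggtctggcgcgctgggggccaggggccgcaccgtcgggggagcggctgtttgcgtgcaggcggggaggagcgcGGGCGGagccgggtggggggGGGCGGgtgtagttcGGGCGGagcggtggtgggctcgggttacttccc

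Dpp4, chr2:62412232-62412481, minus strand: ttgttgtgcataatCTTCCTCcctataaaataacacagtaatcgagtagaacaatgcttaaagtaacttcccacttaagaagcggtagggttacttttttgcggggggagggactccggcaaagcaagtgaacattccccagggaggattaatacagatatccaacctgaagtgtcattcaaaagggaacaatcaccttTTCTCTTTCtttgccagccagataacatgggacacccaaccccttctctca

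The Anpep window is 72.8% G and C and held 3 GC boxes, with first bases 68, 48 and 33 bases before the start. The Dpp4 window is 43.6% G and C and held 1 response element core, 51 bases before the start, and 1 PU.1 match, 236 bases before it. Among 32851 promoters of the same length, 32.7% held a GC box, 7.13% the response element core, 10.6% the PU.1 letters, 7.02% the gamma-activated site and 6.75% the AP-1 site. Of the other 4 genes, Lnpep and Lap3 held 4 GC boxes each, Erap1 1 response element core, and Dpp7 1 of each of these. No window held a gamma-activated or AP-1 match, and no match overlapped another. The response element core was first searched in a longer form of 10 letters, which matched Dpp4 alone of the 6 (2.98% of promoters) and was then shortened to 9 letters for printing, not for its matches; Erap1 and Dpp7 match the shorter form only. The 4 motifs left out were the ETS-IRF composite element (0 of the 6 genes, 2.30% of promoters), the E-box (6 of 6, 66.2%), the kB site (4 of 6, 45.8%) and the TATA box (Dpp4 alone, 12.4%). A match is a run of letters and not a shown binding site.

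Anpep encodes aminopeptidase N, or CD13, a surface zinc enzyme of myeloid cells. Its level was 455 and 332 CPM in CD103+ DC1, 75.9 and 69.9 CPM in Rag2-/- ISG+ DC, and 420 and 430 CPM in WT ISG+ DC. Both Rag2-/- ISG+ DC libraries lay far below the other 4, and the WT ISG+ DC libraries lay inside the range of CD103+ DC1. The means were 393 ± 87.4, 72.9 ± 4.28 and 425 ± 7.19 CPM (SD, n = 2). Within Rag2-/- hosts Anpep was 5.40-fold lower in ISG+ DC (log2 change -2.43 ± 0.27, SE). Between hosts it was 5.83-fold higher in WT than in Rag2-/- ISG+ DC, a log2 change of 2.54 ± 0.27. In bulk samples fewer cells of a type and less RNA per cell cannot be told apart. Macrophage and monocyte markers, from cells known to carry CD13, summed higher in WT than in Rag2-/- ISG+ DC (0 of 10 passing). Of the 10, 7 had a positive log2 change between hosts and 3 a negative one, Ly6c2 and Ccr2 among these 3. The sum was also higher in Rag2-/- ISG+ DC than in CD103+ DC1 (8 of 10 passing). Fibroblast markers, from another CD13-bearing type, summed lowest in the WT libraries. The part of these cells in the Anpep levels was not tested.

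Erap1 and Lnpep belong to the same zinc aminopeptidase family. Erap1 trims peptides for class I inside the endoplasmic reticulum. Its level was 51.8 and 53.1 CPM in CD103+ DC1, 86.5 and 66.1 CPM in Rag2-/- ISG+ DC, and 72.3 and 73.4 CPM in WT ISG+ DC. Both CD103+ DC1 libraries were lower than each ISG+ DC library, while the ISG+ DC groups overlapped. The log2 change of Erap1 was 0.54 ± 0.34 between populations and -0.07 ± 0.34 between hosts.

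Lnpep encodes the insulin-regulated aminopeptidase (IRAP), which trims peptides in endosomes and is known from cross-presentation by DC. It was at 226 and 159 CPM in CD103+ DC1, 371 and 342 CPM in Rag2-/- ISG+ DC, and 348 and 298 CPM in WT ISG+ DC. As with Erap1, the CD103+ DC1 libraries were below all ISG+ DC libraries. Lnpep was 1.85-fold higher in ISG+ DC within Rag2-/- hosts (log2 change 0.89 ± 0.27). Between hosts the log2 change was -0.14 ± 0.26, with overlapping groups.

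Lap3 encodes a cytosolic leucine aminopeptidase known to be induced by interferon gamma. It was at 53.2 and 23.6 CPM in CD103+ DC1, 25.7 and 22.8 CPM in Rag2-/- ISG+ DC, and 49.2 and 50.2 CPM in WT ISG+ DC. The CD103+ DC1 libraries were far apart, with replicate 3 inside the range of Rag2-/- ISG+ DC. Between hosts the groups did not overlap, and WT was 2.05-fold higher (log2 change 1.04 ± 0.49). Between populations the log2 change was -0.67 ± 0.49, and it was 0.031 without CD103+ DC1 replicate 2 and -1.11 without replicate 3.

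Dpp4 encodes CD26, a surface serine protease that removes a dipeptide after proline or alanine and is used in mice as a surface marker of DC. It was at 376 and 527 CPM in CD103+ DC1, 329 and 266 CPM in Rag2-/- ISG+ DC, and 102 and 171 CPM in WT ISG+ DC. The 3 groups did not overlap and ran in that order from high to low, with means of 451 ± 107, 297 ± 44.2 and 137 ± 48.3 CPM (SD, n = 2). Dpp4 had a log2 change of -0.60 ± 0.31 between populations and -1.12 ± 0.31 between hosts, where it was 2.18-fold lower in WT. T cells and fibroblasts also carry CD26. The 6 T cell markers summed to 10.2 and 18.5 CPM in CD103+ DC1, 24.7 and 6.20 CPM in Rag2-/- ISG+ DC, and 30.1 and 23.9 CPM in WT ISG+ DC, where Dpp4 was lowest. Within that list Cd3e did not exceed 0.499 CPM in any library, Cd3d was highest at 16.3 CPM in CD103+ DC1 replicate 3, the library with the most Dpp4, and Cd4 was highest at 20.6 CPM in Rag2-/- ISG+ DC replicate 2. From Rag2-/- to WT ISG+ DC the means of Flt3, Zbtb46 and Itgax and the fibroblast sum were lower, as for Dpp4, while the mean of H2-Ab1 was not. The part of T cells, fibroblasts or the share of DC in the Dpp4 level was not tested.

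Dpp7 encodes dipeptidyl peptidase II, an enzyme of vesicles and lysosomes. It was the lowest of the 6, with 122 and 10 estimated counts in CD103+ DC1, 251 and 54 in Rag2-/- ISG+ DC, and 167 and 190 in WT ISG+ DC. These correspond to 8.11 and 1.71, 15.8 and 3.94, and 14.9 and 19 CPM. Replicates 3 of both Rag2-/- groups were low, and the groups of each comparison overlapped. The log2 changes, 0.99 ± 1.05 between populations and 0.78 ± 1.04 between hosts, were smaller than their standard errors. Between populations the change was -0.34 without Rag2-/- ISG+ DC replicate 2 and 2.52 without CD103+ DC1 replicate 2; between hosts it was 2.10 with Rag2-/- ISG+ DC replicate 2 left out and 0.098 with replicate 3 left out.

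**Figure D2:**
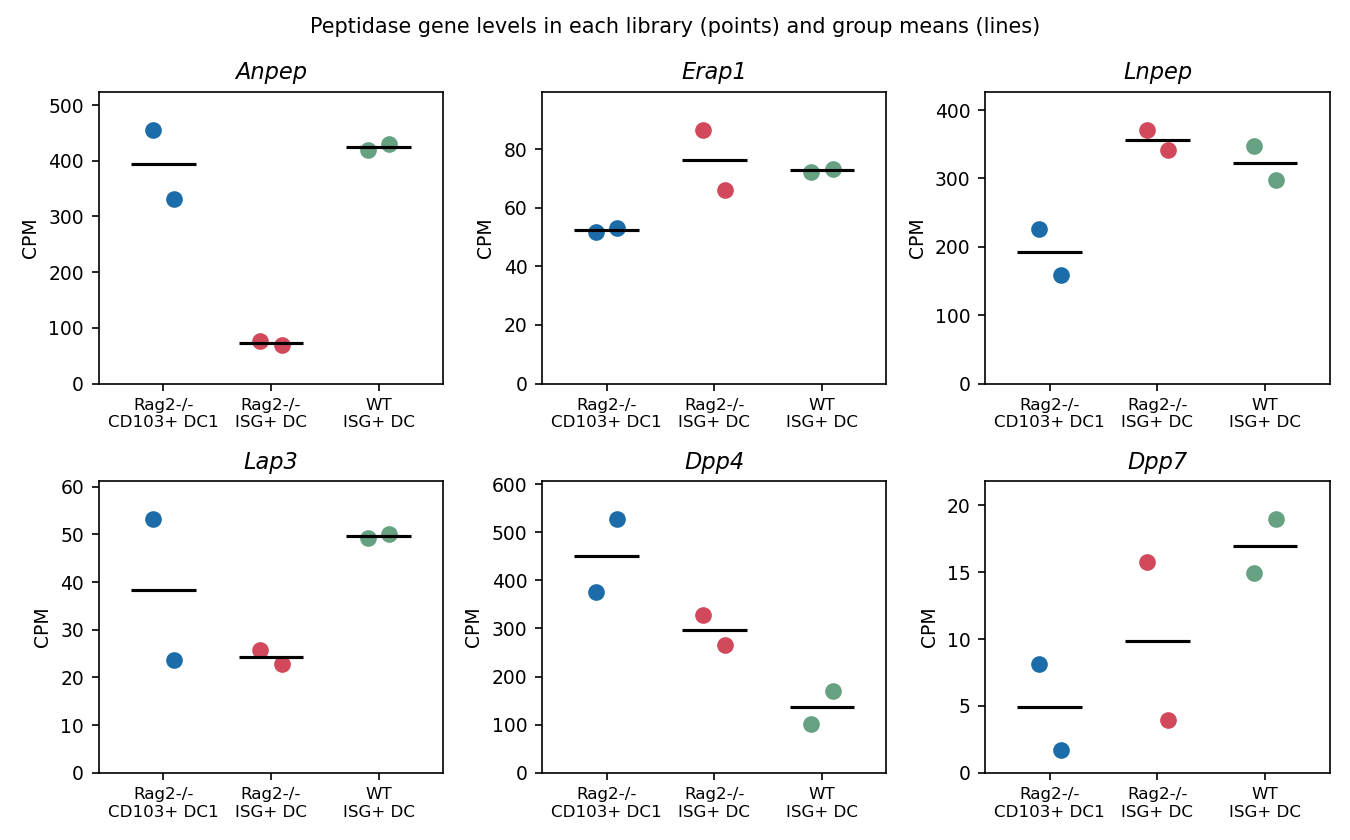
CPM of the 6 peptidase genes in each library (points, 2 per group) with group means (lines), on linear axes that start at 0. Anpep is low in Rag2-/- ISG+ DC alone, at 75.9 and 69.9 CPM, and Dpp4 runs down from 527 CPM in CD103+ DC1 to 102 CPM in WT ISG+ DC.

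Divided by the longest coding transcript of each gene (GENCODE M21), levels can be set beside each other within a library. Anpep led the 6 genes in CD103+ DC1 replicate 2 and both WT ISG+ DC libraries, at 119.9, 110.6 and 113 CPM per kb, and was behind Dpp4 and Lnpep in both Rag2-/- ISG+ DC libraries, at 20.0 and 18.4 CPM per kb. In the other 3 libraries Dpp4 led, with 99.98 CPM per kb in CD103+ DC1 replicate 3 and 62.4 and 50.5 CPM per kb in Rag2-/- ISG+ DC. Lnpep lay between 13.2 and 30.8, Lap3 between 10.04 and 23.5, and Erap1 between 9.18 and 15.3 CPM per kb. Dpp7 was last in every library, at 1.02 to 11.3 CPM per kb.

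In the fit over all 13223 genes tested, which held all 6 genes, 1 of the 6 had an adjusted p (edgeR quasi-likelihood, Benjamini-Hochberg) under 0.05 in each comparison, and both times it was Anpep. Between populations 3.69% of all genes passed, 2.83% higher and 0.862% lower in ISG+ DC. Between hosts 0.552% passed, 0.287% higher and 0.265% lower in WT. Since the genes were chosen with these comparisons known, nothing is read from these counts. Anpep kept its direction under every alternative run, and its call in those with both libraries of each group compared. These runs use the libraries it was chosen from. Dpp4 passed between hosts by DESeq2, with no filter on low counts and with the 4 ISG+ DC libraries alone, and between populations without CD103+ DC1 replicate 2. Lnpep passed between populations by DESeq2, with no filter and without CD103+ DC1 replicate 2.

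**Figure D3:**
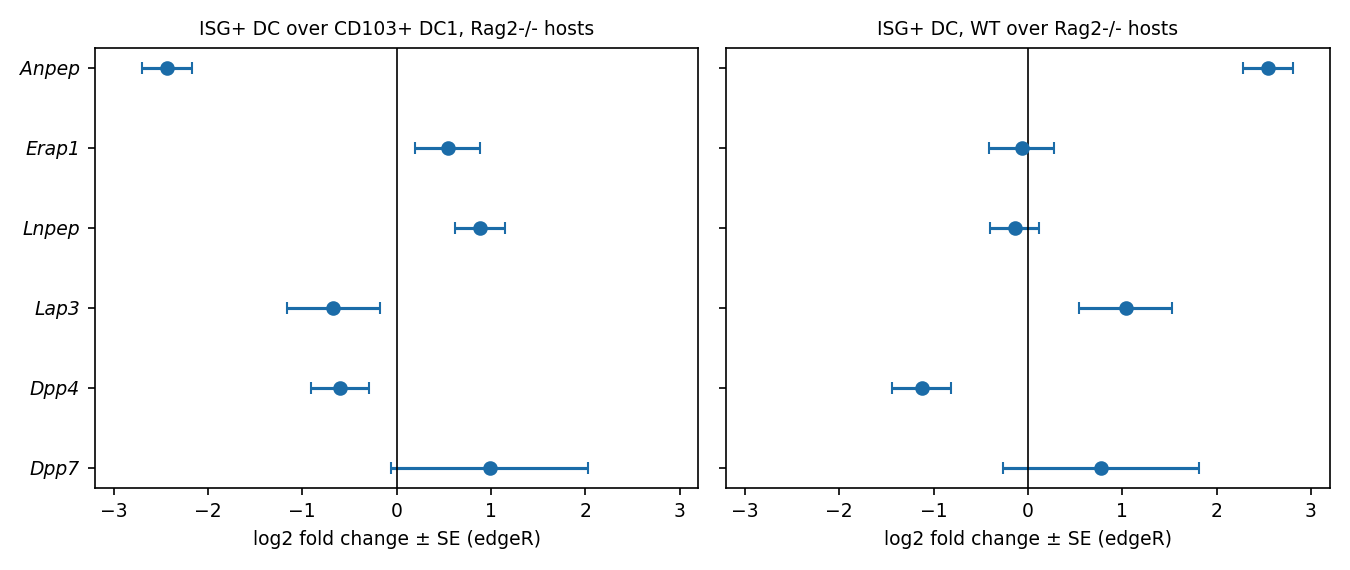
Log2 fold change ± SE (edgeR, 1 fit over the 6 libraries) of the 6 genes between populations (left) and between hosts (right). Anpep has opposite signs, -2.43 and 2.54, and the other 5 genes lie between -1.12 and 1.04.

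The rest of the peptidase families was followed in a list of 43 genes, of which 35 passed the filter on low counts. This list and the gene lists that follow were written with earlier results of these data known. Their counts, medians and p-values are therefore a description and not an independent test. Of all genes tested, 2.83% rose and 0.862% fell in ISG+ DC between populations. Among the 35, 3 rose, 1 fell and 31 did not pass, with a median log2 change of 0.19, beside -0.02 over all genes tested. The 3 that rose were Tpp1, Ctsc and Dpep2, and the 1 that fell was Ece1. Tpp1, the lysosomal tripeptidyl peptidase, was at 10.2 and 10.6 CPM in CD103+ DC1 and 54.4 and 58.8 CPM in Rag2-/- ISG+ DC (log2 change 2.44 ± 0.40, edgeR adjusted p = 0.00705). Ctsc, or dipeptidyl peptidase I, which activates granule serine proteases, was at 116 and 153 CPM against 332 and 580 CPM (1.76 ± 0.31, edgeR adjusted p = 0.00966). Dpep2, a membrane dipeptidase that cleaves leukotriene D4, was at 11.7 and 6.34 CPM against 59.6 and 35.9 CPM (2.39 ± 0.49, edgeR adjusted p = 0.0222).

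Ece1, the endothelin-converting endopeptidase, fell. It was at 807 and 520 CPM in CD103+ DC1 and 149 and 110 CPM in Rag2-/- ISG+ DC, a log2 change of -2.36 ± 0.31 (edgeR adjusted p = 0.00199). None of 16 other aminopeptidases passed by edgeR, beside 3.69% of all genes tested. Under an unadjusted p of 0.05 were 1972 of all 13223 genes and 2 of the 16. Of these 2, Rnpep, aminopeptidase B, was at 50.2 and 14.6 CPM in CD103+ DC1 and 102 and 147 CPM in Rag2-/- ISG+ DC (log2 change 1.93 ± 0.50, edgeR adjusted p = 0.0712). It passed by DESeq2, and by edgeR with no filter or with the replicate block. The other of the 2, Metap2, was lower in ISG+ DC, at 150 and 339 CPM against 132 and 124 CPM (log2 change -0.93 ± 0.37, edgeR adjusted p = 0.254). Of the 16, 8 had a positive log2 change and 8 a negative one. The Ctsc change was 1.31 and no longer passed when Rag2-/- ISG+ DC replicate 3 was left out, and that of Dpep2 was 1.98 and no longer passed when replicate 2 was. Without CD103+ DC1 replicate 2, 10 of the list passed, 7 higher and 3 lower. Macrophage and monocyte markers rose with Tpp1, Ctsc and Dpep2, 8 of 10 passing, and their part in these rises was not tested.

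Between hosts none of the 35 passed by edgeR, beside 0.552% of all genes tested. An unadjusted p under 0.05 was reached by 3 of the 35 and by 1307 of all 13223 genes. By DESeq2 1 of the 35 passed, and 545 of all genes. The median log2 change of the 35 was 0.22. The gene called by DESeq2 was Cndp2, a cytosolic dipeptidase named after its values were seen, at 112 and 114 CPM in Rag2-/- ISG+ DC and 310 and 287 CPM in WT (1.40 ± 0.29, edgeR adjusted p = 0.0584).

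**Figure D4:**
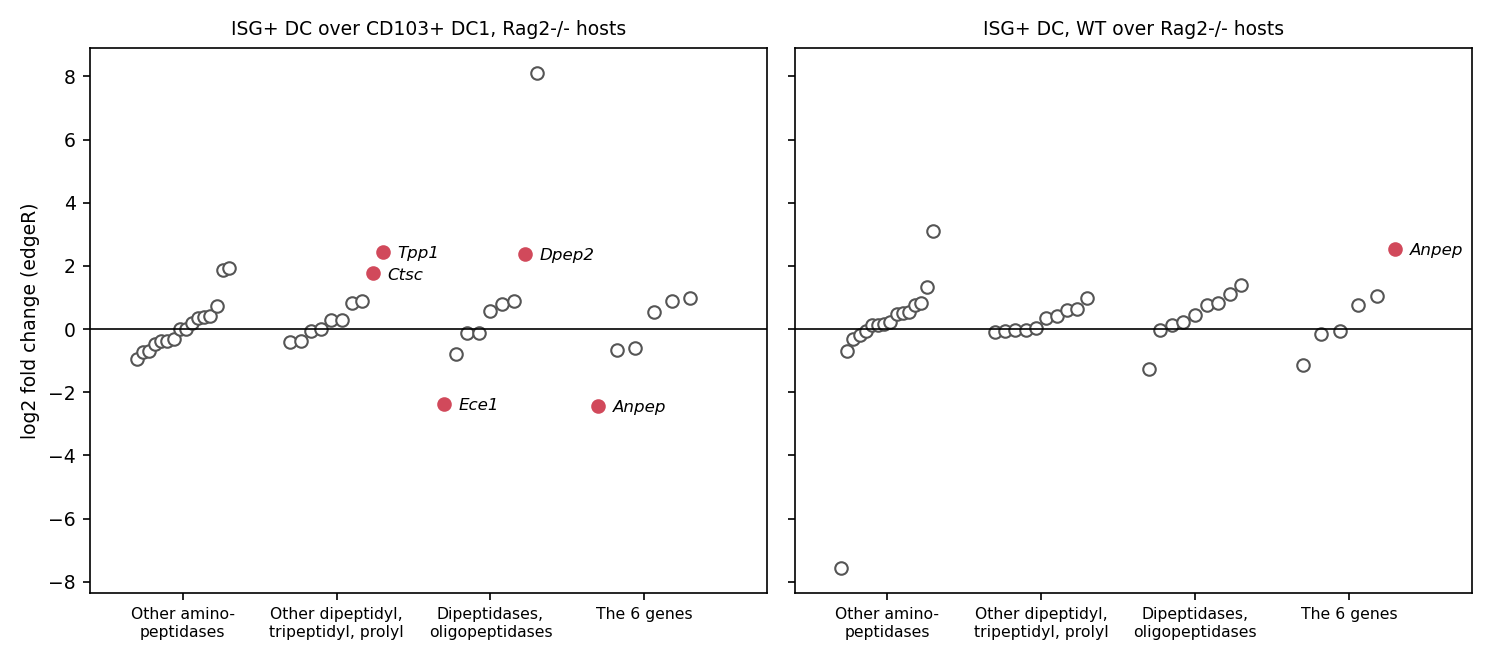
Log2 fold change (edgeR) of 35 other peptidase genes in 3 lists and of the 6 genes (1 point per gene), between populations (left) and between hosts (right). Filled points passed the adjusted threshold of 0.05; the values at 8.12 and -7.56 are fits to genes with a group at 0 (Dpep3 and Xpnpep2) and are not measured sizes.

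Erap1 and Lnpep act on peptides that the proteasome and the TAP transporter supply. Of 13 genes of class I peptide supply and loading, 2 fell in ISG+ DC between populations and none rose (median log2 change -0.30). Of all genes tested, 0.862% fell and 2.83% rose. Of the 13, 4 had a positive log2 change and 9 a negative one. An unadjusted edgeR p under 0.05 was reached by 5 of the 13 and by 1972 of all 13223 genes. Psmb9, an immunoproteasome subunit, was at 121 and 167 CPM in CD103+ DC1 and at 41.4 and 41.6 CPM in Rag2-/- ISG+ DC. Psme1, a proteasome activator subunit, was at 979 and 1574 CPM against 510 and 537 CPM. Both changes, -1.79 ± 0.35 and -1.29 ± 0.26 (edgeR adjusted p = 0.0163 and 0.0222), lost their call without either Rag2-/- ISG+ DC library. Tap1 was at 495 and 189 CPM against 313 and 336 CPM. B2m, 1 of the 5 with an unadjusted p under 0.05, was higher in ISG+ DC. It was at 693 and 884 CPM against 1131 and 1277 CPM (log2 change 0.61 ± 0.22, edgeR adjusted p = 0.207). Between hosts none of the 13 passed by edgeR or had an unadjusted p under 0.05. Of all 13223 genes, 0.552% passed and 1307 had such an unadjusted p. The median log2 change of the 13 was 0.08.

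Of 7 proteins known from IRAP vesicles or to bind IRAP, 1 rose between populations, beside 2.83% of all genes tested. That was Lrp1, an endocytic receptor also abundant in macrophages, at 241 and 157 CPM in CD103+ DC1 and 846 and 1432 CPM in Rag2-/- ISG+ DC (log2 change 2.52 ± 0.31, edgeR adjusted p = 0.00162). Rab14, a GTPase of these endosomes, was at 126 and 93.7 CPM against 160 and 130 CPM. Between hosts none of the 7 passed by edgeR, beside 0.552% of all genes tested. An unadjusted p under 0.05 was reached by 1 of the 7 and by 1307 of all 13223 genes.

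Of 7 chemokines known, mainly from human proteins, as substrates of CD26, 6 were tested. Of these 6, 2 passed between populations, beside 3.69% of all genes tested. Cxcl9 and Cxcl10, both ligands of CXCR3, went opposite ways between populations. Cxcl9 fell from 89.6 and 184 CPM in CD103+ DC1 to 23.3 and 34.3 CPM in Rag2-/- ISG+ DC (log2 change -2.25 ± 0.40, edgeR adjusted p = 0.0113). Cxcl10 rose from 12.6 and 3.08 CPM to 139 and 105 CPM (3.91 ± 0.58, edgeR adjusted p = 0.00411), and moved to 5.29 without CD103+ DC1 replicate 2 and to 3.30 without replicate 3. Between hosts Cxcl9 alone of the 6 passed, beside 0.552% of all genes tested. Cxcl9 was at 272 and 194 CPM in WT ISG+ DC (3.02 ± 0.42, edgeR adjusted p = 0.0159), the group in which Dpp4 was lowest. When Rag2-/- ISG+ DC replicate 2 was left out neither Cxcl9 change passed, at -1.99 and 2.76, and between populations Cxcl9 was at -1.62 without CD103+ DC1 replicate 3.

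The genes most like each peptidase were ranked by Pearson correlation of log2(CPM + 1) over the 6 libraries among 8072 tested genes averaging 10 CPM or more, predicted genes left out. The libraries share 3 groups, so these values describe the groups' pattern. Nearest to Anpep were Fnip2 (0.991), Cdk8 (0.991) and Pcf11 (0.978). Nearest to Dpp4 were Cwc22 (0.995), Paics (0.995) and Ube2c (0.994), a mitotic ubiquitin-conjugating enzyme at 39.1 and 85 CPM in CD103+ DC1 and 0.536 and 3.59 CPM in WT ISG+ DC. Lnpep lay closest to Pvrl1 (0.998), Acvr2a (0.996) and Il10ra (0.994), and Erap1 to H2-T23 (0.986), a nonclassical class I gene, Ppp3r1 (0.973) and Pira1 (0.972). Lap3 was closest to Actr8 (0.969), Coro7 (0.967) and Eif4a1 (0.966), and Dpp7 to Rras (0.984), Mocs1 (0.982) and Ankrd50 (0.981). Among the 6 genes, Erap1 and Lnpep were the closest pair, at 0.852, followed by Anpep and Lap3 at 0.772.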

How the data were processed

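The deposited table holds estimated counts per gene symbol, not normalized, which the authors made with RSEM 1.3.1 and Bowtie 1.2.3 on build mm9, per the submitters' processing notes. Of values in the table, 16.1% are not whole. Which annotation and strand setting were used is not given, so overlapping genes cannot be separated. Per the labels' protocols the libraries were stranded low-input total RNA, although the molecule field names polyA RNA.

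Values were rounded and fitted in R 4.3.3 with edgeR 4.0.16 (filterByExpr, TMM, glmQLFit over 6 libraries in 3 groups, glmQLFTest, two-sided, Benjamini-Hochberg over 13223 genes). The filter can leave out low genes. CPM uses TMM-scaled totals, and SE comes from the F statistic. Each group has 2 libraries, so the SD rests on 2 values. The p-values set a difference against the spread between libraries, pooled over the 3 groups. That spread is drawn toward that of other genes (prior degrees of freedom 7.34, residual 3). Replicates of a group differed beyond counting noise (chi-square per degree of freedom 41.1 to 93). The procedure was tested on simulated data. Alternatives, with DESeq2 1.42.0 among them, are given at the end.

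Members and lists (6 gene lists and 12 marker lists) were chosen with earlier results of these data known. Of 9 promoter motifs scanned, 5 were kept after their matches had been seen, and 1 of these was then shortened. Named genes were all members, and up to 4 genes per gene list and comparison that passed, by smallest p. The 3 genes most correlated with each member were also named. Tap1, B2m, Rab14, Cndp2, Rnpep, Metap2 and the single marker genes were named after their values were seen. Of the listed symbols 4 were found under RefSeq synonyms, and Trac and Ly6g were not found.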

Additional observations from a re-analysis of the deposited data

How the results depend on the processing

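Anpep kept its direction in all 9 alternatives between populations (log2 change -2.62 to -2.19) and all 8 between hosts (2.48 to 2.604). It kept its call in those with both libraries of each group compared. Anpep was chosen from values of these same libraries, so this is a description and supports nothing further. Genes called between populations numbered 488, against 1077 by DESeq2, 1087 with no filter on low counts, 297 with the 4 libraries compared alone, and 278 to 2068 without 1 library each. Genes called between hosts numbered 73, against 545 by DESeq2, 555 with no filter, 444 with the 4 libraries alone, and 27 to 198 without 1 library each; the highest counts came without CD103+ DC1 replicate 2 and without WT ISG+ DC replicate 1. The share of population calls that were higher in ISG+ DC was 76.6%, and 63% by DESeq2 and 61.7% with no filter. Over all genes the median log2 change was -0.018 between populations, moving to 0.157 when CD103+ DC1 replicate 2 was left out and to -0.128 when Rag2-/- ISG+ DC replicate 2 was. The cause of these differences was not tested. Other peptidase genes called between populations numbered 4, and 3 to 10 without 1 library each. Between hosts they numbered 0, and 1 by DESeq2, 2 with no filter, 1 with the 4 libraries alone and 0 without any 1 library.

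Signs turned in 3 cases, none of them called: Lap3 between populations (-1.11 to 0.031 without 1 library each, the highest without CD103+ DC1 replicate 2), Dpp7 between populations (-0.34 to 2.52, the lowest without Rag2-/- ISG+ DC replicate 2) and Erap1 between hosts (-0.25 to 0.14, the highest without the same library). Psme1 and Dpep2 also lost their calls with the 4 libraries alone. With the replicate number as a block (replicate block) over the 4 Rag2-/- libraries, 659 genes were called, 5 of them on the peptidase lists. The same 4 libraries without the block gave 297. The deviations of same-numbered libraries had a correlation of -0.05 over 8072 genes. This value rests on replicate 2 minus 3 of each group and cannot decide whether the numbers pair the libraries. The host groups share a single number, and no block was fitted there. Depth limits Dpp7 most, at 10 estimated counts in CD103+ DC1 replicate 3.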
